A study of Mus musculus with 6 samples.

Results

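The phosphodiesterase genes described here were 10 genes, Pde1a, Pde1b, Pde1c, Pde3a, Pde3b, Pde6b, Pde6d, Pde7a, Pde8a and Pde9a, of 25631 genes listed in a transcriptome table of mouse oocytes. They were chosen on their measured levels in these libraries as the phosphodiesterases detected in oocytes, and each was taken from the table by its symbol. Their levels are therefore given as a description. The difference between the groups was not a criterion of the choice and was tested. Earlier results of these data were, however, known when the genes were chosen. The data went against the choice for Pde7a, which had 0 to 13 reads in a library. The other 9 genes had at least 61 reads in every library.

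The study gave aminophylline, a theophylline derivative that blocks phosphodiesterases without selecting between them, to naturally aged female ICR mice, an outbred strain, and asked what the drug does to their oocytes. The control group (3 libraries, named aged and untreated in the labels) drank water. The aminophylline group (3 libraries) drank 4.0 mM aminophylline for 1 week and then water only for 3 weeks, so the drug had been withdrawn before the oocytes were taken. Mice of both groups were 14 months old and had been injected with equine chorionic gonadotropin, and their oocytes were taken by puncturing large antral follicles. No genotype was altered, and no young mice were sequenced, so the libraries hold no comparison with youth. The number of mice and oocytes behind a library was not given in the sources used here. Nothing in the labels says that the libraries came from separate animals, so the p-values measure only the spread between these libraries.

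Phosphodiesterases hydrolyse the cyclic nucleotides cAMP and cGMP and so end the signals that these messengers carry. In the oocyte, cAMP keeps meiosis arrested, and PDE3A, a cAMP-hydrolysing enzyme that cGMP inhibits, lowers it when meiosis resumes. The PDE1 enzymes are switched on by calcium and calmodulin and act on both nucleotides, PDE7 and PDE8 act on cAMP, and PDE9 acts on cGMP. PDE6B is a catalytic subunit of the cGMP phosphodiesterase of rod photoreceptors. PDE6D carries the family name because it was found with that enzyme, but it is a chaperone that binds the lipid tails of prenylated proteins.

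This division can be read from the coding sequences. The catalytic domain holds a 12-residue signature, in which 2 histidines and an aspartate are followed by an asparagine or glutamine. In the GENCODE transcripts of build GRCm38, the signature was found in 9 of the 10 genes and not in Pde6d, whose protein has 150 residues. Of 21782 coding genes scanned, 22 held it, 21 of them among the 24 genes of the phosphodiesterase family. The 36 coding bases are shown for the most abundant gene of each catalytic subfamily represented among the 10 genes, because they set the 9 catalytic genes apart from the gene with the highest level. Capitals mark the codons of the first histidine, the aspartate, the second histidine and the asparagine or glutamine.
Pde1b: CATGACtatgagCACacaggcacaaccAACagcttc
Pde3a: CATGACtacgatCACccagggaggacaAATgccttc
Pde6b: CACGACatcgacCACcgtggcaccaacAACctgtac
Pde7a: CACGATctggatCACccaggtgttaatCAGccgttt
Pde8a: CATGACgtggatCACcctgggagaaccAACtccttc
Pde9a: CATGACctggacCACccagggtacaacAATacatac
The Pde1b bases lie at chr15:103524849-103524884 on the plus strand, in exon 8 of 16. The Pde3a bases lie at chr6:141487899-141487934 on the plus strand, in exon 12 of 16. The Pde6b bases lie at chr5:108426864-108426899 on the plus strand, in exon 14 of 22. The Pde7a bases lie at chr3:19233715-19233750 on the minus strand, in exon 8 of 13, and their last codon in capitals is that of glutamine, where the other 5 have asparagine. The Pde8a bases lie at chr7:81324067-81324102 on the plus strand, in exon 18 of 22. The Pde9a bases are split over exons 12 and 13 of 19, between chr17:31460230 and 31461574 on the plus strand.

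Levels are given as FPKM, fragments divided by the length of the gene model and by the size of the library, as the authors deposited them. Library totals recovered from these values lay between 14112341 reads in control 2 and 33641283 reads in control 1. All 11 oocyte marker genes reached an FPKM of 1, with summed levels of 8871 to 14820, led by Zp3. The 12 granulosa and cumulus markers summed to 16.7 to 24.4, the 10 theca and stroma markers to 2.33 to 4.93, 3 endothelial markers to 5.63 to 8.89 and 4 erythrocyte markers to at most 0.585. These sums rest on few genes. An FPKM of 1 was reached in any library by 3 granulosa and cumulus, 2 theca and stroma, 2 endothelial and 0 erythrocyte markers. Cyp19a1 led the granulosa and cumulus list at 7.37 to 15.7, and Pecam1 the endothelial list at 4.87 to 6.66. The macrophage list stood apart in control 1, where its 12 genes summed to 260, against 81.1 to 102 in the other 5 libraries. Of the 12 genes, 11 were highest in control 1. The exception was C1qb, at 72.3 in control 1 and 79.2 to 99.8 in the other 5 libraries, where it made up most of the sum. Lyz2 was at 66.4 in control 1 and at most 0.573 in the other 5, and Fcer1g at 57.6 and at most 0.368.

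Pde6d held by far the highest level of the 10 genes. Its FPKM was 412, 402 and 328 in control 1, 2 and 3 and 441, 307 and 359 in aminophylline 1, 2 and 3, resting on 8812 to 21520 reads. Its rank among all listed genes lay between 240 and 369. Aminophylline 1 was highest and aminophylline 2 lowest, so the control values lay within the range of the aminophylline values. The means were 380 ± 45.9 in control and 369 ± 67.5 in aminophylline (SD, n = 3 each). Per library, Pde6d stood 34.2 to 89.1 times above the next gene and 9.61 to 24.7 times above the 9 catalytic genes added together.

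Pde6b, the rod subunit, was second in all 6 libraries. Its FPKM was 4.62, 6.19 and 9.59 in control 1, 2 and 3 and 5.02, 6.71 and 8.10 in aminophylline 1, 2 and 3, on 246 to 859 reads. The library numbered 3 was the highest and the library numbered 1 the lowest of each group, and the groups overlapped, with means of 6.80 ± 2.54 and 6.61 ± 1.54 (SD, n = 3 each). Of 8 other rod photoreceptor genes, Pde6a and Pde6g among them, none reached an FPKM of 1, and their sum was 0.398 to 1.13.

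Pde3a, the phosphodiesterase best known from oocytes, followed with an FPKM of 2.74, 1.63 and 5.29 in control 1, 2 and 3 and 2.996, 4.35 and 6.31 in aminophylline 1, 2 and 3. Control 2 was lowest and aminophylline 3 highest, and control 3 lay above 2 of the aminophylline libraries. The means were 3.22 ± 1.88 and 4.55 ± 1.67 (SD, n = 3 each). Its reads numbered 327 to 2736, the second largest number after Pde6d in every library. Its relative Pde3b, which also hydrolyses cAMP and is inhibited by cGMP, had an FPKM of 3.33, 1.85 and 4.88 in control and 2.15, 4.11 and 5.16 in aminophylline, again with wide overlap.

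The calmodulin-activated genes were lower. Pde1b had an FPKM of 1.44, 1.90 and 4.70 in control 1, 2 and 3 and 1.89, 3.38 and 3.83 in aminophylline 1, 2 and 3, with the highest value in control 3. Pde1c was the steadiest catalytic gene, at 1.45, 1.45 and 1.27 in control and 1.56, 1.497 and 1.74 in aminophylline. Every aminophylline library lay above every control library for Pde1c, by a small margin. Pde1a had an FPKM of 1.73, 0.653 and 0.808 in control and 0.889, 0.952 and 0.875 in aminophylline, so control 1 alone stood out. Control 1 is also the library with the high macrophage markers, whose part in the Pde1a value was not tested. In bulk libraries, more cells of a type and more RNA per cell cannot be told apart.

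Among the genes that act on a single nucleotide, Pde8a (cAMP) had an FPKM of 2.51, 1.71 and 3.12 in control 1, 2 and 3 and 1.83, 2.92 and 3.61 in aminophylline 1, 2 and 3. The groups overlapped over most of their range. Pde9a (cGMP) had an FPKM of 2.31, 1.73 and 4.41 in control and 1.51, 1.42 and 2.66 in aminophylline. Control 3 was highest and the 2 lowest values were those of aminophylline 1 and 2, but the groups overlapped, with means of 2.82 ± 1.41 and 1.86 ± 0.688 (SD, n = 3 each). Pde7a had 8, 0 and 8 reads in control and 6, 5 and 13 in aminophylline, an FPKM of at most 0.0445. Transcripts on the opposite strand overlap exons of Pde3a, Pde7a and Pde9a, and whether the counting used strand is not given in the sources used here.

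**Figure D1:**
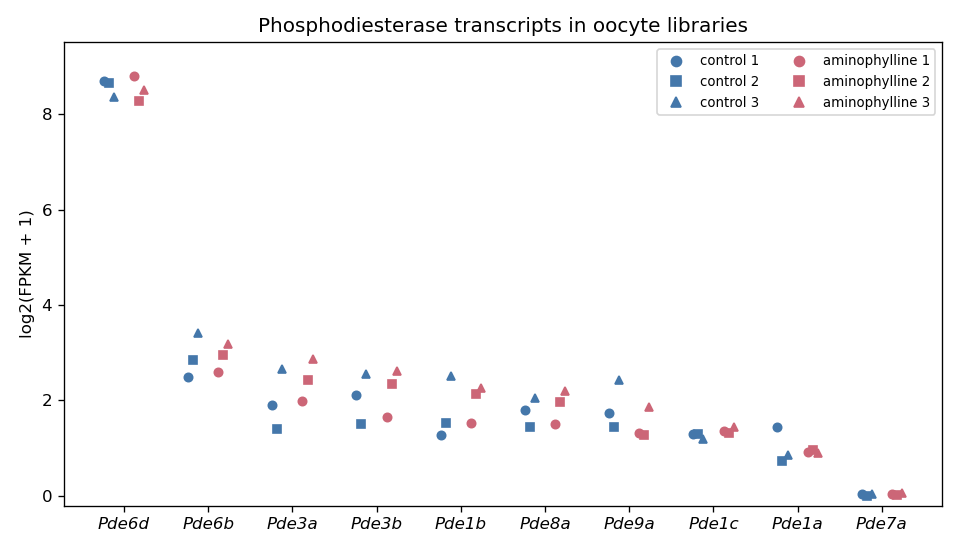
Level of each of the 10 phosphodiesterase genes, as log2(FPKM + 1) on the y axis, in 3 control libraries (blue) and 3 aminophylline libraries (red), with circles, squares and triangles for the libraries numbered 1, 2 and 3. Pde6d stands far above the rest, Pde7a lies at or near 0, and triangles top both groups for Pde6b, Pde3a, Pde3b, Pde1b, Pde8a and Pde9a.

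In the order of mean FPKM, 3 steps held in all 6 libraries: Pde6d over Pde6b, Pde6b over Pde3a, and Pde1a over Pde7a. The neighbours between Pde3a and Pde1a changed places in at least 1 library. Pde3a was above Pde3b in 4 of 6 libraries, Pde8a above Pde9a in 4 and Pde9a above Pde1c in 4. Pde3b was above Pde1b, Pde1b above Pde8a and Pde1c above Pde1a in 5 of 6 libraries each. Further apart in the order, Pde3a, Pde3b and Pde8a were each above both Pde1c and Pde1a in all 6 libraries.

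The order also depends on the length by which reads were divided, since the FPKM used the length of a whole gene model. With the longest coding transcript in place of that length, an alternative chosen after seeing the data, Pde6d and Pde6b stayed first and second with mean levels of 502 and 6.75. Pde9a moved from the seventh place to the third, at a mean level of 4.63 instead of 2.34. Pde4d, a cAMP-specific enzyme outside the 10 genes, moved from place 12 of 24 to place 6. Its deposited FPKM was 0.199 to 0.368, on 189 to 660 reads and a gene model of 53295 bases. Divided by its longest coding transcript of 4207 bases, its level was 2.53 to 4.66. The reads were not recounted over that transcript, for this or any other gene. Reads from the rest of the gene model may therefore be included, and the level of Pde4d may be too high. By reads, which are not divided by length, Pde4d stood above Pde9a, Pde1a and Pde1b on average, with a mean of 388 reads against 277, 186 and 304. With the longest coding transcript as the length, its mean level of 3.34 was below that of Pde9a (4.63), about equal to that of Pde1b (3.34) and above that of Pde1a (1.53).

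The other 13 genes of the family had mean levels below 1 on both lengths. Pde8b, a cAMP-specific relative of Pde8a, led them with 44 to 139 reads and an FPKM of 0.289 to 0.533. Pde10a had 40 to 151 reads. Pde2a, a cGMP-stimulated enzyme, had 4 to 22 reads, and Pde6c had 1 read in all libraries together. Pde5a, a cGMP-specific enzyme, had 15, 5 and 13 reads in control and 23, 21 and 20 in aminophylline. Its FPKM, at no more than 0.118, did not overlap between the groups (exact permutation p = 0.1, two-sided, the smallest possible here). Among the 10340 genes that reached an FPKM of 1 in 3 or more libraries, which leave out Pde5a, 12.5% did not overlap either. Added up, the FPKM of all 14 other family genes came to 1.43 to 2.58 in a library.

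As a share of the summed FPKM of the 10 genes, Pde6d held 95.3%, 95.9% and 90.6% in control 1, 2 and 3 and 96.1%, 92.4% and 91.7% in aminophylline 1, 2 and 3. The libraries numbered 3 had the lowest share of each group, and the groups overlapped. The mean share was 93.9% ± 2.93 in control and 93.4% ± 2.36 in aminophylline (SD, n = 3 each). Over all 6 libraries it was 93.7%, and as a share of reads, which are not divided by length, it was 78.5%. The sum of the 10 genes was 432, 419 and 362 in control and 458, 332 and 392 in aminophylline, with means of 404 ± 37.2 and 394 ± 63.2.

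Without Pde6d, the 9 catalytic genes summed to an FPKM of 20.2, 17.1 and 34.1 in control 1, 2 and 3 and 17.9, 25.4 and 32.3 in aminophylline 1, 2 and 3. The libraries numbered 3 were highest in both groups. Enzymes grouped as acting on both nucleotides (PDE1 and PDE3) made up 48.8% ± 4.71 of that sum in control and 55.0% ± 1.66 in aminophylline. Pde3a and Pde3b, described above as hydrolysing cAMP, are counted in this class only. Enzymes grouped as acting on cGMP alone (Pde6b and Pde9a) made up 40.6% ± 5.94 and 34.0% ± 2.31. The class for cAMP alone (Pde7a and Pde8a), which leaves out PDE3, made up 10.6% ± 1.75 and 11.1% ± 0.645 (SD, n = 3 each). The classes acting on 1 nucleotide overlapped between the groups. The highest control value of the dual class, 53.0%, lay just under its lowest aminophylline value, 53.1%.

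Of the catalytic sum, Pde6b held 22.9% to 36.2%, Pde3b 10.8% to 16.5%, Pde1b 7.12% to 13.8% and Pde8a 9.16% to 12.4%. For Pde3a the share was 13.6%, 9.55% and 15.5% in control 1, 2 and 3 and 16.8%, 17.2% and 19.5% in aminophylline 1, 2 and 3. For Pde9a it was 11.5%, 10.1% and 12.9% in control and 8.44%, 5.62% and 8.22% in aminophylline. Pde3a and Pde9a were the 2 genes whose shares of this sum did not overlap between the groups, in opposite directions. As shares of all 10 genes, Pde6d included, both overlapped. Pde3a then held 0.390% to 1.46% in control and 0.653% to 1.61% in aminophylline, and Pde9a 0.413% to 1.22% and 0.329% to 0.678%. Pde3a FPKM divided by Pde9a FPKM was 1.18, 0.945 and 1.20 in control and 1.99, 3.05 and 2.38 in aminophylline. This ratio was singled out after its values were seen and was not tested. Without a ratio, 12.5% of the 10340 genes tested did not overlap between the groups in FPKM. The same was not computed for shares or ratios.

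**Figure D2:**
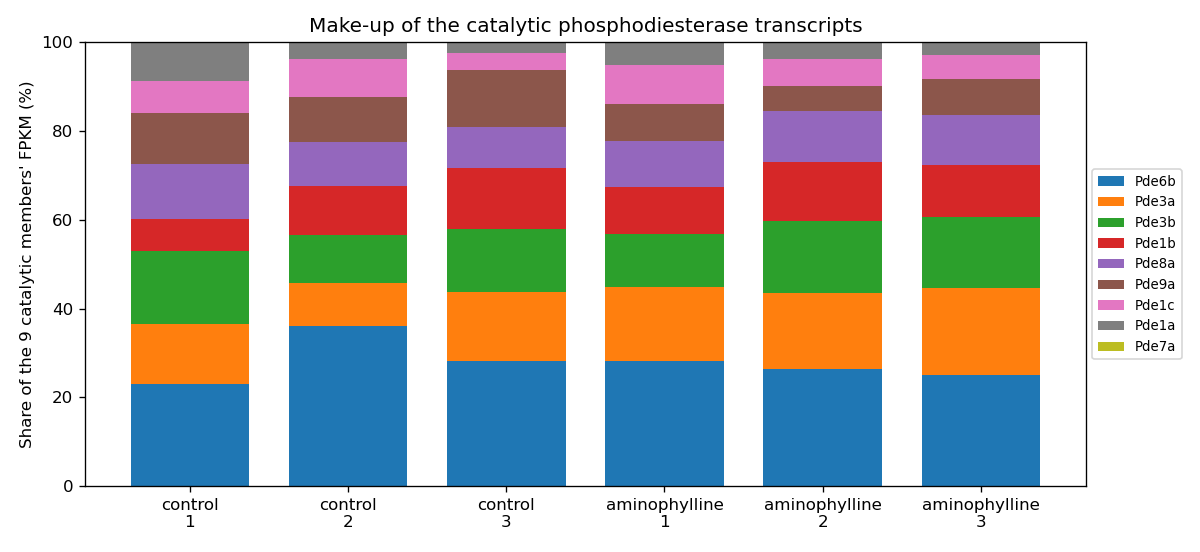
Share of each of the 9 catalytic genes in their summed FPKM (y axis, percent), as stacked bars for the 3 control and 3 aminophylline libraries. The Pde3a segment runs from 9.55% to 15.5% in control and from 16.8% to 19.5% in aminophylline, the Pde9a segment from 10.1% to 12.9% and from 5.62% to 8.44%.

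Whether the levels differed between aminophylline and control was tested with limma on log2(FPKM + 1), across 10340 genes that reached an FPKM of 1 in 3 or more libraries. Of the 10 genes, 8 were tested, and Pde1a and Pde7a fell under the filter. None of the 8 was called, that is, had both an unadjusted p under 0.05 and a change over 1.5-fold, as 3.21% of all genes tested had. None passed the unadjusted p alone, which 7.25% of all genes did (750 genes), and none passed the adjusted p, which 0% of all genes did. The smallest Benjamini-Hochberg adjusted p in the limma fit was 0.455 over all genes and 0.749 over the 8. With limma voom on the recovered reads, none of the 8 and 761 of all genes passed the unadjusted p, and no gene passed the adjusted p.

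The largest differences were those of Pde3a and Pde9a, in opposite directions. For Pde3a the log2 difference was 0.44 (SE 0.333, 95% interval -0.29 to 1.18, limma adjusted p = 0.749). For Pde9a it was -0.38 (SE 0.284, 95% interval -1.004 to 0.24, limma adjusted p = 0.749). For Pde6d it was -0.053 (95% interval -0.44 to 0.33), the narrowest interval of the 8, and for Pde6b -0.0067 (95% interval -0.61 to 0.59). The differences of Pde1b, Pde3b, Pde8a and Pde1c lay between 0.12 and 0.20, beside a median of 0.10 over all genes tested. On this scale the intervals of 6 of the 8 genes reach past a 1.5-fold change in at least 1 direction, and those of Pde6d and Pde1c end short of it. The scale understates changes of low genes. The Pde1c difference was 0.19 on log2(FPKM + 0.1) and 0.21 with voom, against 0.12 here. Its interval therefore sets no bound at a 1.5-fold change in FPKM.

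Pde1c was the 1 gene of the 8 whose groups did not overlap, against 12.5% of all genes tested. Its difference was 0.12 (95% interval -0.28 to 0.52, limma adjusted p = 0.865), and an exact permutation test gave p = 0.1, the smallest that 3 against 3 libraries allow. By the same exact test, two-sided, the 2 genes under the filter gave p = 1 for Pde1a (log2 difference -0.081) and p = 0.6 for Pde7a (0.017).

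The Pde3a difference moved with the libraries used. Without control 3, the library with its highest control value, it was 0.78 (limma adjusted p = 0.308), and Pde3a was then the 1 gene of the 8 called. In that fit 9.73% of all genes tested were called as well, against 3.21% with all libraries. Without control 2, the Pde3a difference was 0.15 (limma adjusted p = 0.875), and without aminophylline 3 it was 0.22 (limma adjusted p = 0.999). The Pde9a difference was -0.097 without control 3, -0.59 without control 2 and -0.57 without aminophylline 3.

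The libraries carry the numbers 1 to 3 in both groups, and same-numbered libraries were compared as pairs. Over the tested genes, the deviations of same-numbered libraries correlated weakly for the numbers 1 and 2 and more strongly for the number 3. The same was not computed for differently numbered libraries, so whether the numbers mark true pairs was not tested. Pde3a was higher in the aminophylline library of all 3 pairs, with FPKM ratios of 1.09, 2.66 and 1.19. Pde1c was higher in all 3 as well, with ratios of 1.08, 1.03 and 1.37. Pde9a was lower in all 3, with ratios of 0.651, 0.823 and 0.602. The other genes split: Pde6d had ratios of 1.07, 0.763 and 1.10, Pde6b 1.09, 1.08 and 0.845, Pde3b 0.646, 2.22 and 1.06, Pde1b 1.31, 1.78 and 0.815, Pde8a 0.729, 1.71 and 1.16 and Pde1a 0.512, 1.46 and 1.08. How many of all genes tested kept 1 direction in all 3 pairs was not computed. In the main limma fit, 64.8% of all genes tested had a positive difference. With the number as a replicate block, none of the 8 genes passed the unadjusted p, which 14.2% of all genes tested did, and none the adjusted p, which 0.455% did. The smallest limma adjusted p of the 8 under the block was 0.366 for Pde3a, followed by 0.397 for Pde9a.

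**Figure D3:**
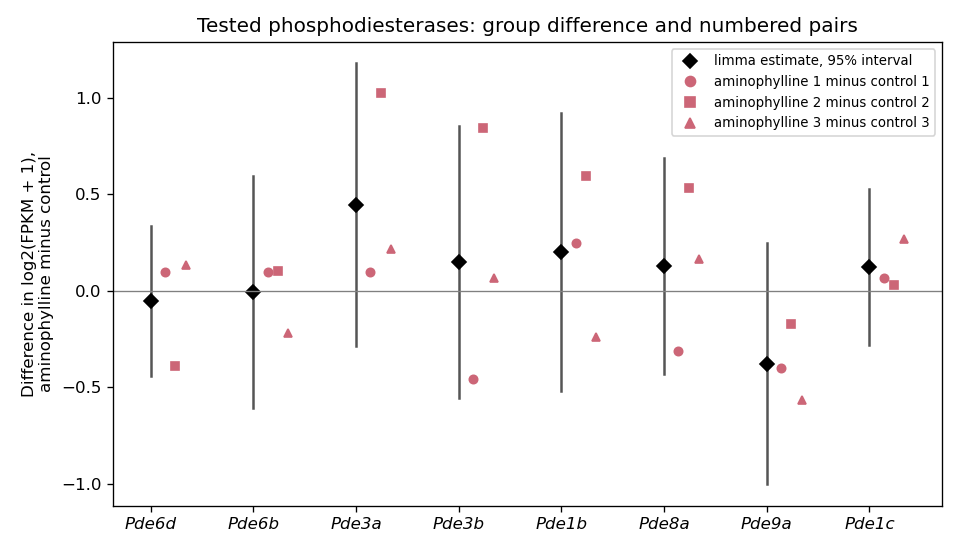
Difference in log2(FPKM + 1), aminophylline minus control (y axis), for the 8 tested phosphodiesterase genes. Black diamonds with bars are limma estimates with 95% intervals over 3 against 3 libraries, and red symbols are the pairs of libraries with the same number. All 8 bars cross 0, and the 3 pairs lie above 0 for Pde3a and Pde1c and below 0 for Pde9a.

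The libraries numbered 3 deviated together more than those numbered 1 or 2. In control, the FPKM of library 3 over the mean of libraries 1 and 2 was 2.82 for Pde1b, 2.42 for Pde3a, 2.18 for Pde9a, 1.88 for Pde3b, 1.77 for Pde6b and 1.48 for Pde8a. In aminophylline the same ratios were 1.45, 1.72, 1.81, 1.65, 1.38 and 1.52. Pde6d, with ratios of 0.806 and 0.961, and Pde1c, with ratios of 0.879 and 1.14, did not share the pattern.

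Gene length moved with the same contrast over the whole table. The tested genes were split by length into 4 groups of about equal size. In the shortest, the median log2 difference of library 3 from the others was -0.19 in control and -0.10 in aminophylline. In the longest it was 0.39 and 0.25. Pde6d, whose gene model of 1554 bases is the shortest of the 10, lies in the second group, where the medians were 0.19 and 0.03, and its own differences were -0.31 and -0.03. The other 7 tested genes lie in the 2 groups of longest genes, and 6 of them exceeded the median of their length group in both control and aminophylline. Pde1c, with the longest model (14592 bases), was below the median of its length group in both. The part of length in the numbered libraries was not tested.

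**Figure D4:**
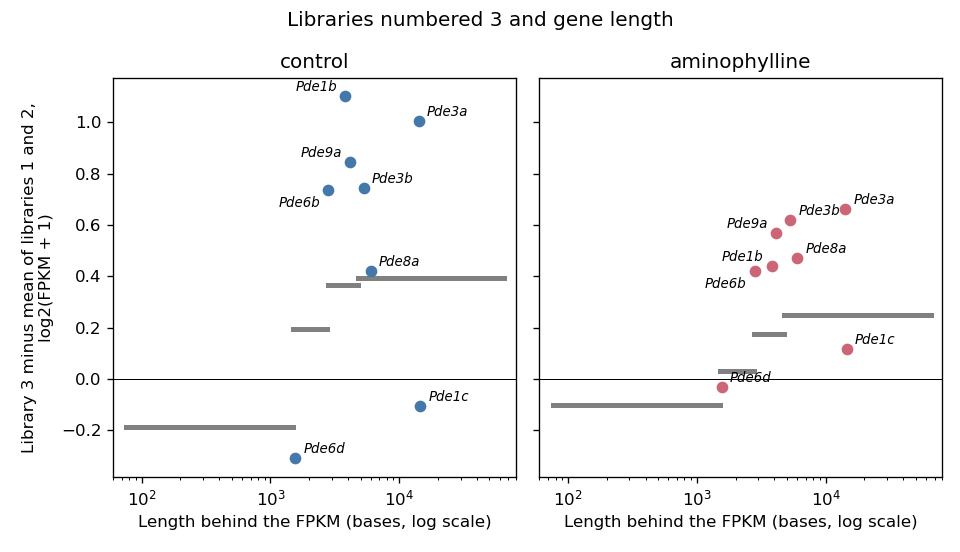
Library 3 minus the mean of libraries 1 and 2 in log2(FPKM + 1) (y axis) against the length behind the FPKM (x axis, bases, log scale), for control (left) and aminophylline (right). Points are the 8 tested phosphodiesterase genes, and grey bars are medians of all tested genes in 4 groups by length, which rise from -0.19 to 0.39 in control and from -0.10 to 0.25 in aminophylline.

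The genes around the phosphodiesterases in the cAMP pathway were read from a list of 35 genes, 31 of them in the table and 19 tested. None was higher at an unadjusted p of 0.05 and 1 was lower, against 7.25% of all genes tested, and none passed the adjusted p. The 1 gene was Rapgef4, an exchange factor activated by cAMP, with an FPKM of 3.48, 1.90 and 2.09 in control 1, 2 and 3 and 1.33, 1.14 and 1.58 in aminophylline 1, 2 and 3. All aminophylline values lay below all control values, with a log2 difference of -0.55 (SE 0.225, limma adjusted p = 0.682). Of all genes tested, 12.5% did not overlap between the groups either. With the replicate block 3 genes of the list passed the unadjusted p, Rapgef4, the G protein subunit Gnai2 and the anchor protein Akap1, and none the adjusted p. That is 3 of 19 tested genes, beside 14.2% of all genes tested under the block.

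On the side of cAMP production, the most abundant adenylyl cyclase was Adcy8, with mean FPKM of 3.74 ± 0.353 in control and 3.96 ± 0.720 in aminophylline (SD, n = 3 each). Gnai3, an inhibitory G protein subunit, led its group with 14.4 ± 5.95 and 15.3 ± 2.90. On the side of cAMP action, Prkar1a, a regulatory subunit of protein kinase A, was at 19.2 ± 5.11 and 24.4 ± 4.95, and Pkig, an inhibitor of that kinase, at 51.9 ± 10.2 and 51.8 ± 7.91. Rapgef3, the relative of Rapgef4, was at 2.36 ± 0.564 and 2.47 ± 0.0634. Except for Rapgef4, no group of the list held a gene past the unadjusted p.

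Of 8 cGMP genes, 2 were tested and neither passed the unadjusted p. Gucy2c, a receptor that makes cGMP, was at 3.83 ± 0.450 in control and 3.92 ± 0.722 in aminophylline. Prkg1, a kinase activated by cGMP, was at 10.8 ± 0.797 and 9.77 ± 0.590 (SD, n = 3 each). Npr2, the receptor through which follicle cells make cGMP, had an FPKM of at most 0.0163.

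Partners of the phosphodiesterase proteins were read from a list of 16 genes, 14 of them tested, and none passed the unadjusted p. Calm2, a gene for the calmodulin that activates PDE1, was at 1475 ± 394 in control and 1322 ± 17.4 in aminophylline. Akt1, a kinase that phosphorylates PDE3 enzymes, was at 4.11 ± 2.50 and 5.49 ± 1.36. Arl2, a small GTPase that releases cargo from PDE6D, was at 217 ± 62.5 and 236 ± 42.2, and Fnta, a subunit of the enzymes that attach the lipid tails which PDE6D binds, at 99.5 ± 9.24 and 82.6 ± 11.1 (SD, n = 3 each). With the replicate block 1 of the 14 genes passed the unadjusted p, beside 14.2% of all genes tested. It was Icmt, which methylates prenylated proteins, at 4.24 ± 0.621 and 6.08 ± 0.858.

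The genes whose pattern over the 6 libraries was most like that of Pde6d were Jagn1, Nmu and Itgb1bp1. Likeness was the root mean square difference of the deviations from the gene mean in log2(FPKM + 1), and it was 0.0578, 0.0639 and 0.0648, beside a root mean square deviation of 0.185 for Pde6d itself. For Pde6b they were Dcun1d2, Maea and Mcfd2, at 0.0425, 0.0610 and 0.0679, beside 0.317 for Pde6b itself. They were searched among 10038 and 8589 genes that share the same libraries and depths, and no test was made.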

How the data were processed

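RNA of 6 oocyte libraries was analysed from 1 gene table. The authors deposited FPKM values, with no further scaling between libraries. The submitters' processing notes name builds GRCm38 and mm10; the aligner, the counter, the annotation and the strand setting are not given in the sources used here. Groups and numbers were taken from the labels, and 0 sample columns were left unused. The members and gene lists were chosen with earlier results of these data known.

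Whole reads were recovered from the ratios of FPKM between libraries, with 100% of the values checked coming out whole. Depth set a floor of 3 reads, which covers counting error only. The main test was limma 3.58.1 in R 4.3.3, two-sided, with a variance trend on log2(FPKM + 1), which understates changes of low genes. It was fitted over genes that reached an FPKM of 1 in 3 or more libraries, and p-values were adjusted by Benjamini-Hochberg over all of them. Calls needed an unadjusted p under 0.05 and a fold change over 1.5. The script was tested on simulated data with large changes in genes of higher level. That test does not cover small changes or the low levels of most genes described here. Shares, sums and tables were made in Python 3.11.15.

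Named genes were the 10 genes, the other family genes, listed pathway and partner genes with an unadjusted p under 0.05, the most abundant gene of each group of a list, and the 3 genes most like each of the 2 most abundant members. Pde4d, Npr2 and the genes passing only under the replicate block were named after their values were seen. The deviations of same-numbered libraries correlated at 0.138, 0.140 and 0.552 over the tested genes, and those of differently numbered libraries were not computed. The numbers of the labels were treated as pairs in the description and in the replicate block, although no source says what they share.

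Alternatives were a pseudocount of 0.1, no filter, a mean FPKM of at least 5, quantile normalization, an unmoderated model, a common sum (TPM), median centring, the replicate block, library weights, voom on recovered reads, leaving out each library, and other totals and lengths for the shares.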

Additional observations from a re-analysis of the deposited data

How the results depend on the processing

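No member passed the unadjusted p of 0.05, with or without the fold threshold, under any of the 10 alternatives that kept all libraries, although the stricter filter, a mean FPKM of 5, left only Pde6b and Pde6d to test. Leaving out 1 library gave 0 to 1 members called and 0 to 1 members at the unadjusted p, the 1 being Pde3a without control 3 (log2 difference 0.78). The count of cAMP and cGMP genes at the unadjusted p, 1 with all libraries, was 2 with library weights, 3 with the replicate block, 0 with a mean FPKM of at least 5, a filter that removes Rapgef4 from the test, 0 with the unmoderated model and 0 to 4 with 1 library left out: 4 without control 3, and 0 without control 1, aminophylline 1 or aminophylline 2. These counts are out of 19 cAMP and 2 cGMP genes tested in the main fit. Over all 10340 genes tested, the count was 750 in the main fit, 2011 with library weights and 1474 without control 3. It was 677 with the unmoderated model, 369 without control 1, 704 without aminophylline 1 and 329 without aminophylline 2. With the replicate block the count of all genes at the unadjusted p rose from 750 to 1467, those at the adjusted p from 0 to 47, and no call of a member changed.

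Of 74 member differences under alternatives with all libraries, 73 kept their direction and their side of the threshold. The exception was Pde6b, at 0.16 with library weights. With 1 library left out, 38 of 48 kept both and 9 changed direction. These were Pde1b (range -0.045 to 0.57, below 0 without control 1), Pde3b (-0.12 to 0.43, with -0.12 without control 2 and -0.056 without aminophylline 3), Pde6b (-0.22 to 0.24, with 0.15 without aminophylline 1 and 0.24 without control 3), Pde6d (-0.19 to 0.072, with 0.0076 without control 1 and 0.072 without aminophylline 2) and Pde8a (-0.036 to 0.32, with -0.036 without control 2 and -0.030 without aminophylline 3). The difference in the summed FPKM of the 10 members, -10.1 with all libraries, ranged from -42.4 to 20.8. The Pde9a difference ranged from -0.59 to -0.097. The adjusted p of Pde3a ranged from 0.308 to 0.999. The Pde6d share was 78.5% of reads, since its gene model is short, and 94.1% with the longest coding transcript, an alternative chosen after seeing the data. In control 2, the shallowest library, the low members rest on the fewest reads.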
